A study of Arabidopsis thaliana with 16 samples.

Results

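The 26S proteasome is the protease of the ubiquitin system, and its subunits are described here in leaves of Arabidopsis thaliana at the level of their transcripts. The genes were chosen by locus from a list of 51 subunit genes, all of which were found among the 27827 genes of the arrays. They fall into 12 genes of the 20S alpha rings, 11 genes of the 20S beta rings, 10 RPT genes and 18 RPN genes. The list also gives 19 paralogue pairs, which hold 38 of the genes, and 13 genes stand alone. Symbols follow the annotation of RefSeq, which names 40 of the 51 loci, and the other 11 are given by locus, with their place in a subcomplex or pair taken from the list.

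Transcripts were measured on 16 Affymetrix AraGene-1_0-st arrays, 4 in each of 4 groups in the Col-0 background. The amiNaa10 and amiNaa15 plants carry an artificial microRNA, driven by the constitutive CaMV35S promoter, against NAA10 or NAA15, and were well watered. NAA10 is the catalytic and NAA15 the ribosome-anchoring subunit of NatA, the complex that acetylates the N termini of nascent proteins. Wild-type plants had 10 days without water in the WT drought group and were well watered in the WT control group. By the labels, plants grew for 6 weeks under 8 h of light before the drought began. The methods of the study put the harvest of the well-watered plants at the same total age as that of the drought plants, and give a slightly longer light period. The arrays of a group are called biological replicates, with no word on how many plants each held, and the p-values measure the spread between these arrays. Each amiNaa group stands for transformed plants with a lasting knockdown, not for a brief loss of NatA. The comparisons ask whether the response of NatA-depleted leaves at the proteasome resembles that of wild-type leaves under drought.

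Proteins marked with chains of ubiquitin are unfolded and cut by this complex. The 20S core is a barrel of 4 stacked rings in which the alpha subunits form the outer rings and the gate, and the beta subunits the inner rings with the active sites. The RPT subunits are ATPases of the regulatory particle that unfold the substrate and open the gate, and the RPN subunits recognise ubiquitin, remove it or hold the particle together. In plants the proteasome turns over many regulators of hormone signalling, among them factors of the abscisic acid response. Most subunits are encoded by a pair of closely related genes, and probes of such pairs may detect transcripts of both.

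The knockdown was checked first. NAA10 read 5.16, 5.28, 4.92 and 5.01 on the log2 scale on the amiNaa10 arrays and 6.58 to 6.88 on the WT control arrays (difference -1.58, limma adjusted p = 0.0137). Of the arrays labelled amiNaa15, replicates 1 and 2 went against their label. NAA10 read 5.16 and 5.06 there and NAA15 read 9.68 and 9.54, whereas replicates 3 and 4 had NAA10 at 6.89 and 6.86 and NAA15 at 7.97 and 7.80, against 9.00 to 9.20 for NAA15 on the WT control arrays. This group is therefore called the arrays labelled amiNaa15. The counts, medians and calls that rest on it are also given without replicates 1 and 2, where 2 arrays are left. Against WT control, 0.392% of all genes were then called instead of 7.54%, and 13% instead of 7.96% were separated upwards. Between amiNaa10 and this label, 7 of all genes were called instead of 0. All arrays share an identical distribution of values after quantile normalization, and arrays of a group correlated at 0.971 to 0.991 over all genes. The leaf marker RBCS1A, the small subunit of Rubisco, read 13.11 to 13.39 in WT drought and the same 13.39 on every other array. With such a tied value it cannot rank the other groups. The leaf marker CAB2 read 1.70 to 3.57 on all arrays. Among 6 leaf, 4 root, 3 flower and 2 seed markers, 2 were called in drought: CA1, a leaf carbonic anhydrase, at -1.67 and PYK10, a beta-glucosidase of roots, at -1.57. The mean log2 level of the leaf markers was 8.90 to 9.50 on the WT drought arrays and 9.66 to 9.95 on the WT control arrays, and that of the root markers was 3.90 to 4.40 in WT drought and 4.31 to 4.74 in WT control. The root markers COBL9 and EXPA7 read 1.72 to 3.48 on all arrays. The part of these shifts in the results below was not tested.

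The subunit genes were well expressed on these arrays. The median of their mean log2 signals was 7.55, against 5.28 for all genes, and 2 of the 51, PAF1 and AT5G20000, had a mean below the median of all genes. Levels of different genes depend on their probes and are not ranked here. The standard deviation between arrays of a group had a median of 0.10 in amiNaa10, 0.10 in the arrays labelled amiNaa15, 0.14 in WT drought and 0.10 in WT control over the subunit genes, against 0.19 to 0.21 over all genes.

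In wild-type leaves after drought, 12 of the 51 subunit genes were lower than in well-watered leaves and none was higher (limma, adjusted p below 0.05 over all genes). Over all genes the same rule called 10.8% lower and 13.9% higher, so that 23.5% of the subunit genes against 10.8% of all genes were called lower. The 12 genes were AT1G79210, PAC1 and PAG1 of the alpha rings, PBB1, PBB2, PBC1, PBC2, AT3G26340 and PBG1 of the beta rings, RPT2b, RPN5b and RPN8a. The changes were small, with log2 differences from -0.25 for PAC1 to -0.59 for AT3G26340, and AT3G26340 alone was called and over 1.5-fold lower, against 7.15% of all genes. The difference was below 0 for 40 of the 51 genes (78.4%, against 46.7% of all genes), with a median of -0.18 for the subunit genes and 0.03 for all genes. In whole leaves, fewer cells of a type and less transcript per cell cannot be told apart.

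**Figure D1:**
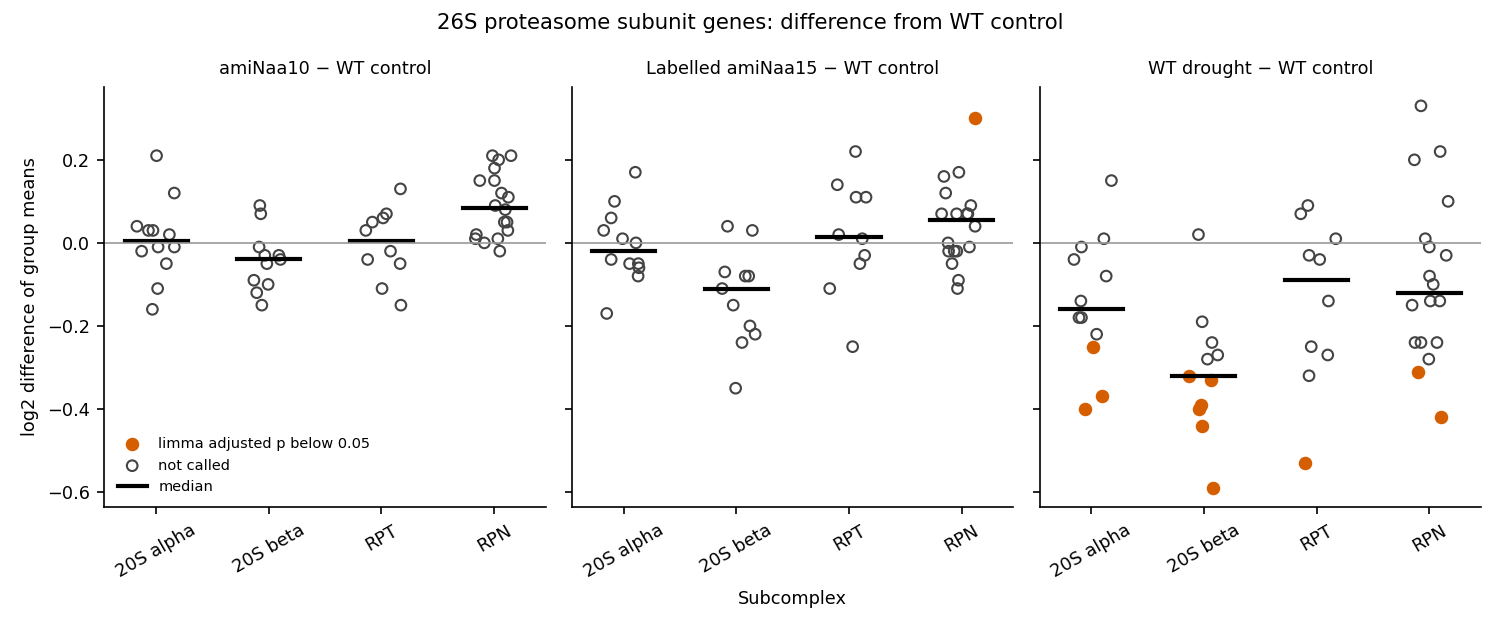
Log2 difference of group means from WT control (vertical axis) for each subunit gene, by subcomplex, for amiNaa10, the arrays labelled amiNaa15 and WT drought. Points are genes, filled where the limma adjusted p was below 0.05, and bars are medians; in WT drought the beta ring genes had a median of -0.32 and 6 of 11 were called lower.

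Calls and medians differed among the subcomplexes. Of the 11 beta ring genes, 6 were called lower and the median difference was -0.32. Of the 12 alpha ring genes, 3 were called lower with a median of -0.16. Of the 10 RPT genes, 1 was called lower with a median of -0.09, and of the 18 RPN genes 2 were called lower with a median of -0.12. The same rule called 10.8% of all genes lower, and the RPT and RPN counts were near that share. These medians are descriptions and the difference between subcomplexes was not tested.

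The beta rings carry the proteolytic sites, and members of several positions were lower. PBB2, of the subunit with trypsin-like activity, read 5.38, 5.20, 5.39 and 5.39 on the WT drought arrays and 5.83, 5.67, 5.78 and 5.69 on the WT control arrays (-0.40 ± 0.10, SE, adjusted p = 0.00611). The groups did not overlap. Its paralogue PBB1 read 7.21, 7.43, 7.57 and 7.27 in WT drought and 7.61, 7.60, 7.77 and 7.81 in WT control (-0.32, adjusted p = 0.0481). The gap between the groups was narrow for PBB1, whose highest WT drought array lay next to the lowest WT control array.

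PBC1 and PBC2 encode a beta subunit without an active site. PBC1 read 6.97, 7.03, 7.18 and 7.08 in WT drought and 7.43, 7.52, 7.39 and 7.49 in WT control (-0.39 ± 0.08, SE, adjusted p = 0.0022). PBC2 read 8.28, 8.35, 8.45 and 8.13 in WT drought and 8.75, 8.62, 8.66 and 8.49 in WT control (-0.33, adjusted p = 0.0299). Both genes of this pair were lower on every drought array than on any control array.

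AT3G26340, listed as the partner of PBE1, had the strongest decrease of all subunit genes. It read 5.71, 5.50, 6.04 and 5.83 in WT drought and 6.45, 6.16, 6.58 and 6.25 in WT control (-0.59 ± 0.17, SE, 1.5-fold lower, adjusted p = 0.018). PBE1, of the subunit with chymotrypsin-like activity, read 7.29 to 7.52 in WT drought and 7.66 to 7.73 in WT control, and its difference of -0.27 missed the threshold (adjusted p = 0.051). PBG1, of another subunit without an active site, read 7.89, 8.12, 8.27 and 7.91 in WT drought and 8.52, 8.38, 8.56 and 8.47 in WT control (-0.44 ± 0.10, SE, adjusted p = 0.00361). The remaining beta genes that were not called were PBA1, of the subunit with caspase-like activity, at -0.24, PBD1 at -0.19, PBD2 at -0.28 and PBF1 at 0.02, the last being the only beta gene with a value above 0.

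Among the alpha ring genes, AT1G79210, the listed partner of PAB1, read 8.90, 8.97, 9.16 and 9.15 in WT drought and 9.43, 9.50, 9.42 and 9.43 in WT control (-0.40 ± 0.09, SE, adjusted p = 0.00396). PAG1 read 8.67, 8.78, 9.06 and 8.61 in WT drought and 9.14, 9.13, 9.21 and 9.10 in WT control (-0.37 ± 0.10, SE, adjusted p = 0.0111). For PAG1, WT drought replicate 3 lay close to the control arrays and the other 3 well below them. PAC1 was narrowly spread, with 6.95 to 7.01 in WT drought and 7.11 to 7.36 in WT control (adjusted p = 0.0361). The other alpha genes ranged from -0.22 for PAA2 to 0.15 for PAD2, and none was called.

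RPT2b was the RPT gene that was called. It read 5.48, 5.76, 5.64 and 5.55 in WT drought and 6.13, 6.10, 6.11 and 6.21 in WT control (-0.53 ± 0.10, SE, 1.44-fold lower, adjusted p = 0.00107), the lowest adjusted p of the subunit genes. In yeast, the corresponding ATPase opens the gate of the core. The other 9 RPT genes lay between -0.32 for AT1G45000 and 0.09 for RPT3.

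In the RPN group, RPN8a, a lid subunit with a role in leaf polarity, read 6.12, 6.38, 6.01 and 6.25 in WT drought and 6.89, 6.43, 6.71 and 6.40 in WT control (-0.42 ± 0.12, SE, adjusted p = 0.0195). The WT control arrays of this gene were widely spread, and the 2 groups were separated only narrowly. RPN5b, another lid subunit, read 6.30 to 6.52 in WT drought and 6.61 to 6.78 in WT control (-0.31, adjusted p = 0.0456). The ubiquitin receptors had values of opposite sign, without a call: RPN10 was at -0.24 (adjusted p = 0.0651) and RPN13 at 0.33 (adjusted p = 0.0697). The other RPN genes lay between -0.28 for RPN5a and 0.22 for AT5G45620.

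**Figure D2:**
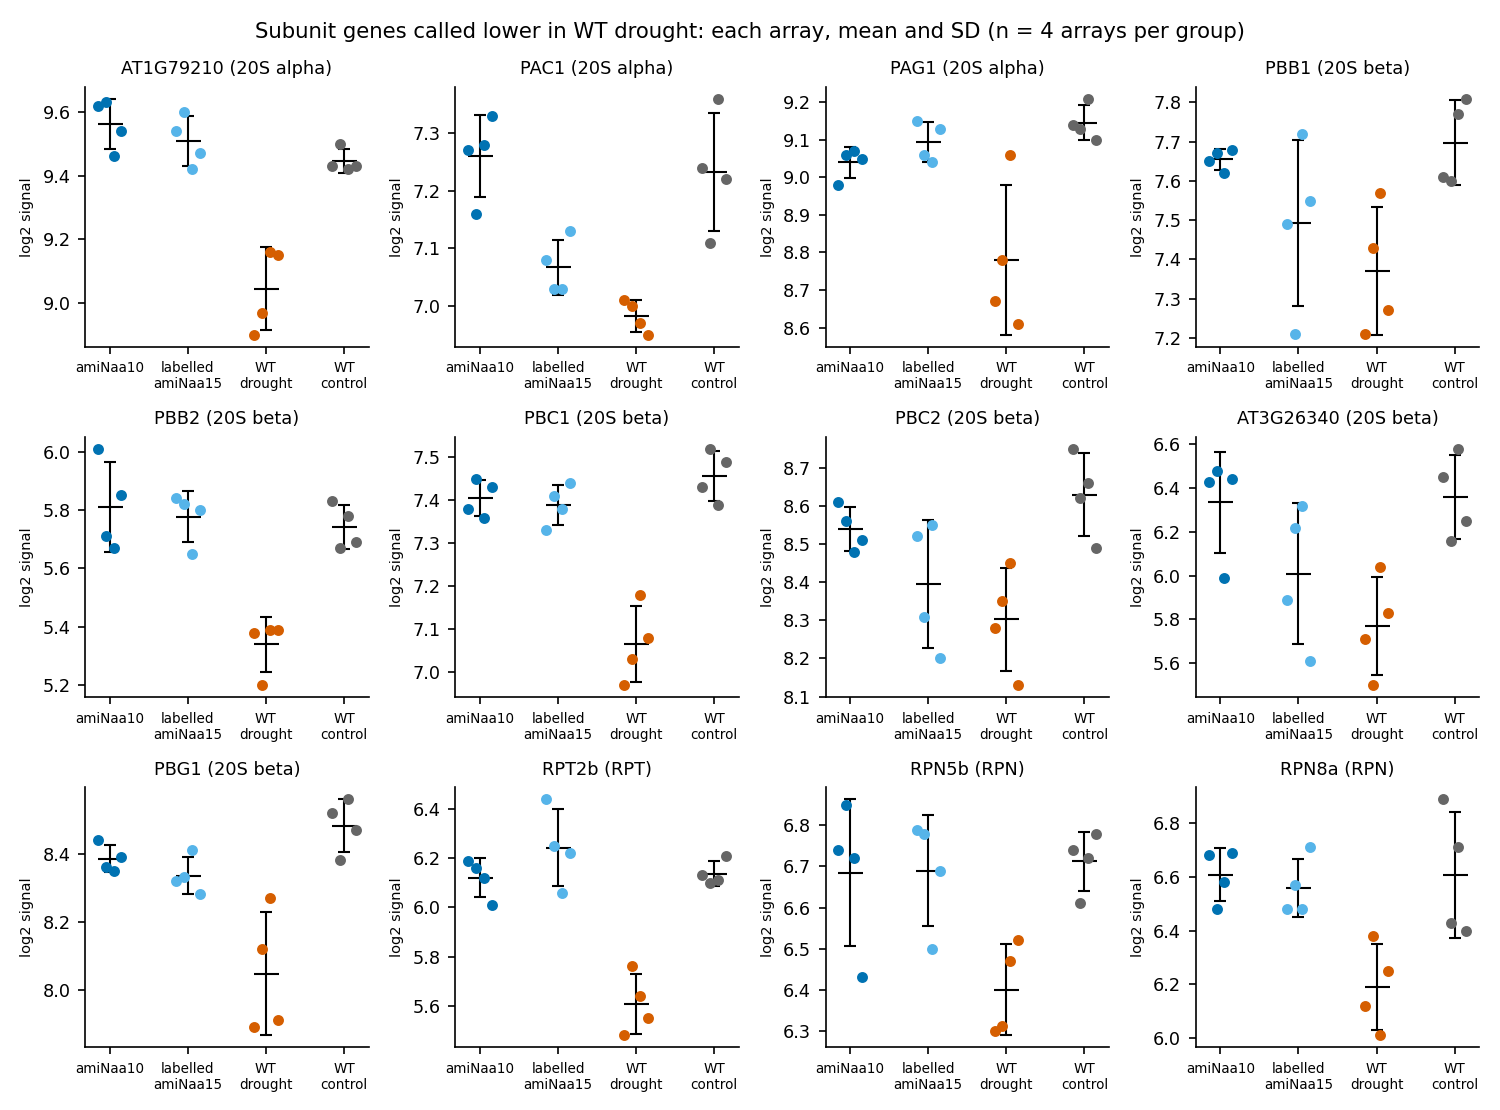
Log2 signal (vertical axis, scaled per panel) of the 12 subunit genes called lower in WT drought, for each array of amiNaa10, the arrays labelled amiNaa15, WT drought and WT control. Horizontal marks and bars are mean and SD over 4 arrays; in each panel the 4 WT drought arrays lie below the 4 WT control arrays.

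All 12 called genes had WT drought arrays below every WT control array. In total 16 of the 51 genes (31.4%) were separated in this direction, against 10.3% of all genes, the other 4 being PBE1, RPT6a, AT1G75990 and RPN5a. Only AT5G45620 was separated upwards, at 7.39 to 7.55 in WT drought and 7.19 to 7.35 in WT control, against 14.5% of all genes.

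The drought arrays differed in depth of the decrease. The median of the 51 genes, relative to the WT control mean, was -0.22, -0.13, -0.03 and -0.23 on WT drought replicates 1 to 4, and 0.01, -0.07, 0.03 and 0.01 on WT control replicates 1 to 4. WT drought replicate 3 thus lay within the control arrays. It also had the lowest CA1, at 9.71, against 10.91 to 11.33 on the other WT drought arrays. Without that array 10 subunit genes were called lower. For the beta ring genes alone, the medians of -0.45, -0.26, -0.18 and -0.39 in WT drought lay below all WT control values of 0.01, -0.10, 0.07 and 0.01. For the alpha ring genes, WT drought replicates 2 and 3 had medians of -0.05 and 0, against -0.06 to 0.05 in WT control. For the RPN genes the WT drought medians were -0.11, -0.12, -0.03 and -0.18, and the WT control medians -0.02 to 0.04.

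**Figure D3:**
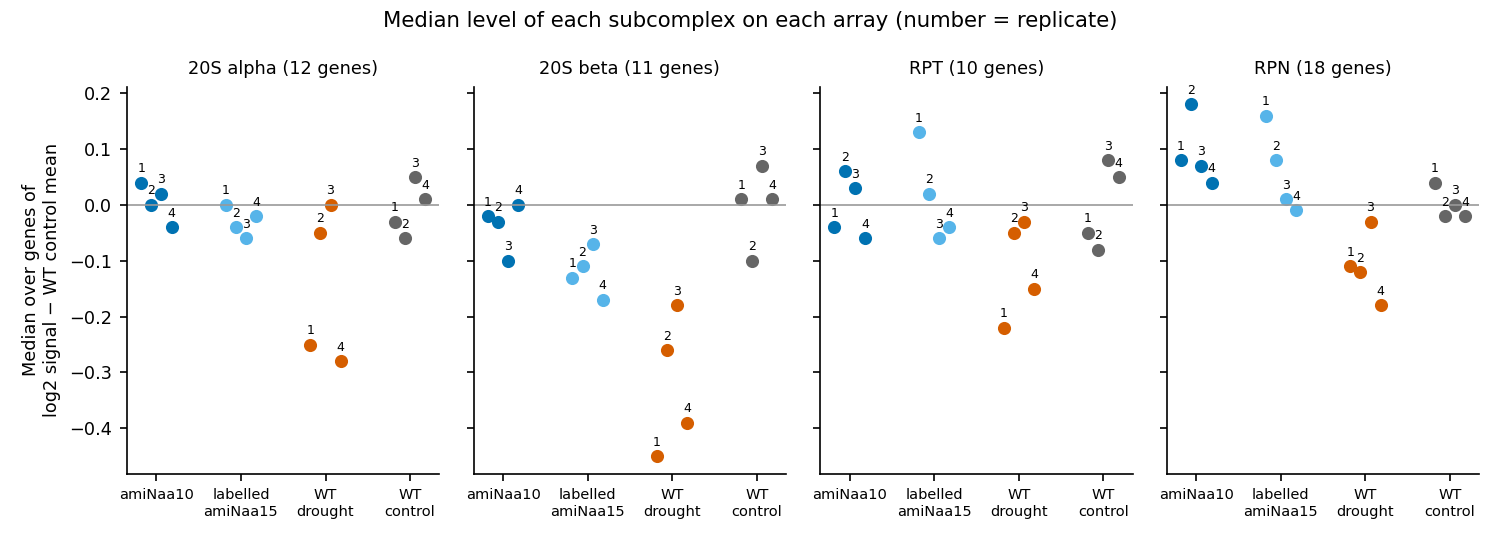
Median over the genes of each subcomplex of the log2 signal minus the mean of WT control (vertical axis), a point per array, numbered by replicate. WT drought replicate 3 is the WT drought array nearest to the controls, at -0.18 for the beta ring genes, whereas WT drought replicate 1 is at -0.45.

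The count rests on single arrays in part. It was 6 without WT control replicate 3 and 7 without WT drought replicate 1, and without WT control replicate 1 it was 7 lower and 1 higher. The gene called higher there was RPN13, which was also called higher without WT drought replicate 2, beside 9 lower genes. AT1G79210, PAG1, PBB2, PBC1, PBG1 and RPT2b stayed called lower whichever of the 16 arrays was left out, whereas PBB1 was called in 3 and RPN5b in 5 of the 16 cases.

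In amiNaa10 none of the 51 subunit genes was called, against 8.04% of all genes. At an unadjusted p below 0.05 there were 2 of the 51 (3.92%), against 24.4% of all genes. All differences lay between -0.16 and 0.21, and the 95% confidence interval of every gene stayed within 1.5-fold, from -0.44 at the lowest to 0.46 at the highest. The median was 0.02 for the subunit genes and 0.02 for all genes. The RPN genes had a median of 0.08 with 17 of 18 above 0, and the beta ring genes a median of -0.04 with 9 of 11 below 0. In this comparison 52.8% of all genes lay above 0 and 47.2% below.

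The amiNaa10 genes nearest to the threshold were AT2G32730 and PAA1. AT2G32730, an RPN gene, read 9.13, 9.30, 9.32 and 9.15 in amiNaa10 and 9.04, 9.06, 8.99 and 8.97 in WT control (0.21, adjusted p = 0.129). PAA1, an alpha ring gene, read 10.32, 10.51, 10.20 and 10.14 in amiNaa10 and 10.05, 10.13, 10.09 and 10.08 in WT control (0.21, adjusted p = 0.184). With AT1G75990, these were the 3 genes whose amiNaa10 arrays all lay above the WT control arrays (5.88%, against 8.36% of all genes), and PAG1 was the gene whose amiNaa10 arrays all lay below (1.96%, against 7.63%).

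On the arrays labelled amiNaa15, 1 of the 51 genes was called (1.96%), against 7.54% of all genes. At an unadjusted p below 0.05 there were 3 of the 51 (5.88%), against 23.8% of all genes. AT2G32730 read 9.32, 9.43, 9.21 and 9.28 there and 8.97 to 9.06 in WT control (0.30 ± 0.08, SE, adjusted p = 0.0413). All 4 arrays lay above the controls. Without replicates 1 and 2, which went against their label, the difference was 0.23 and the call was lost (adjusted p = 0.378), and it was also lost in 10 of 16 cases when a single array was left out. The arrays of 3 genes, AT2G32730, PAA1 and RPT5a, all lay above the WT control arrays (5.88%, against 7.96% of all genes), and those of no gene all lay below (against 7.07%). PAA1 read 10.24 to 10.30 on the arrays labelled amiNaa15 and 10.05 to 10.13 in WT control, and RPT5a read 10.75 to 10.92 on the arrays labelled amiNaa15 and 10.50 to 10.70 in WT control. The other genes lay between -0.35 for AT3G26340 and 0.22 for RPT5a. The medians were -0.02 for the alpha ring, -0.11 for the beta ring, 0.02 for the RPT and 0.06 for the RPN genes. When replicates 1 and 2 were left out, these medians were -0.03 for the alpha ring, -0.08 for the beta ring, -0.08 for the RPT and -0.01 for the RPN genes. No gene was called then (against 0.392% of all genes), and 1 gene had an unadjusted p below 0.05 (against 12.8% of all genes). PAA1, RPT5a and AT2G32730 were again separated upwards (against 13% of all genes), and PAF2, RPT1a and RPN6 downwards (against 10.9%). With all arrays, the 95% confidence interval of AT3G26340 reached lowest of the subunit genes, and a decrease of up to 0.71 on the log2 scale was within it.

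The 2 knockdown groups were also set against each other, although replicates 1 and 2 of the arrays labelled amiNaa15 read like amiNaa10 at NAA10 and NAA15, so that this comparison cannot show that the knockdowns are alike. They had no called gene among the 51 and none among all genes by limma. At an unadjusted p below 0.05 there were 2 of the 51 (3.92%) and 6.89% of all genes. The differences of amiNaa10 minus the arrays labelled amiNaa15 ranged from -0.12 to 0.33 over the subunit genes. In a fit without replicates 1 and 2 of the arrays labelled amiNaa15, limma called none of the 51 and 7 of all genes, 2 of the 51 and 8.29% of all genes had an unadjusted p below 0.05, and the differences ranged from -0.18 for RPT5b to 0.42 for RPN6.

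WT drought was then compared directly with the knockdown plants, which tests the difference between the drought and the knockdown state itself. These comparisons share the WT drought arrays with the one above and are not independent of it. Against amiNaa10, 14 subunit genes were lower in WT drought and none was higher (27.5%, against 13.7% of all genes called lower and 14.7% called higher). Against the arrays labelled amiNaa15, 8 were lower and none higher (15.7%, against 10.8% lower and 11.9% higher). The difference was below 0 for 41 of the 51 genes against amiNaa10 (48% of all genes) and for 44 against the arrays labelled amiNaa15 (48.2% of all genes). Without replicates 1 and 2 of the arrays labelled amiNaa15, 3 were lower and 1, RPN6, was higher (against 11.8% of all genes called in either direction), and 37 of the 51 lay below 0 (48.1% of all genes). The count against amiNaa10 was 9 without amiNaa10 replicate 2. That against the arrays labelled amiNaa15 was 5 without their replicate 4 and 5 without WT drought replicate 1.

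RPT2b differed from amiNaa10 by -0.51 (adjusted p = 0.000943) and from the arrays labelled amiNaa15 by -0.64 (adjusted p = 0.000251). On the amiNaa10 arrays it read 6.19, 6.16, 6.12 and 6.01 and on the arrays labelled amiNaa15 6.44, 6.25, 6.06 and 6.22, so that every WT drought array was below them. AT1G79210 differed by -0.52 (adjusted p = 0.000436) and -0.46 (adjusted p = 0.00146), PBB2 by -0.47 and -0.44, PBC1 by -0.34 and -0.32, PBG1 by -0.34 and -0.29 and RPN8a by -0.42 and -0.37, all called with all arrays. Without replicates 1 and 2 of the arrays labelled amiNaa15, RPT2b (-0.53, adjusted p = 0.00911), AT1G79210 (-0.40, adjusted p = 0.0346) and PBC1 (-0.34, adjusted p = 0.0479) stayed called against the other 2 arrays of this label. PBB2 (-0.39), PBG1 (-0.30), RPN8a (-0.40), PAG1 (-0.30) and AT2G32730 (-0.27) lost their calls there, with adjusted p from 0.059 to 0.143. Against amiNaa10, RPN1b and RPN5a lost their calls in the same fit. PBB1 differed by -0.28 and -0.12, PBC2 by -0.24 and -0.09 and RPN5b by -0.28 and -0.29, none of these called. AT3G26340 differed from amiNaa10 by -0.56 (adjusted p = 0.0196) and from the arrays labelled amiNaa15 by -0.24 (adjusted p = 0.358), where its arrays read 5.89, 6.22, 6.32 and 5.61. The RPN group gave more calls against amiNaa10, with RPN1b, AT2G32730, AT1G75990, RPN5a, RPN8a and RPN10 lower, and its median was -0.25 there against -0.12 relative to WT control.

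Over all 4 groups the mean was lowest in WT drought for 38 of the 51 genes, in amiNaa10 for 4, in the arrays labelled amiNaa15 for 3 and in WT control for 6. The highest mean was in amiNaa10 for 19, in the arrays labelled amiNaa15 for 11, in WT drought for 6 and in WT control for 15. When replicates 1 and 2 of the arrays labelled amiNaa15 were left out, the lowest mean was in amiNaa10 for 3, in the arrays labelled amiNaa15 for 10, in WT drought for 33 and in WT control for 5, and the highest for 21, 8, 7 and 15 genes in the same order of groups. These tallies were not tested, and many neighbouring means lie within the spread of the arrays. They were not made over all genes, so they do not show what is particular to the subunit genes.

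Paralogue pairs were compared by the difference in log2 signal between both genes on each array, which asks whether they moved apart. In WT drought 3 of 19 pairs did not overlap between the groups, in amiNaa10 none and on the arrays labelled amiNaa15 1. Other pairs of genes were not examined, so these counts do not show what is particular to the paralogue pairs. Each test set 4 arrays against 4, for which a two-sided exact permutation test cannot go below p = 0.0286. With 57 such tests no single pair would pass an adjustment, and the pair results are descriptions.

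The RPT2 pair moved apart most. RPT2a, which acts in root meristem and organ size, read 7.67, 7.76, 7.86 and 7.50 in WT drought and 7.42, 7.62, 7.78 and 7.70 in WT control (0.07), while RPT2b was at -0.53. The difference in change was 0.60 (exact permutation p = 0.0286). RPT2a overlapped between the groups and RPT2b did not.

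In the PAB pair, PAB1 read 7.87, 7.95, 8.32 and 7.72 in WT drought and 7.69, 8.02, 8.15 and 7.94 in WT control (0.01), against -0.40 for AT1G79210 (difference 0.41, exact permutation p = 0.0571). In the third pair of this size, AT5G45620 read 7.48, 7.54, 7.55 and 7.39 in WT drought and 7.25, 7.30, 7.35 and 7.19 in WT control (0.22). Its partner AT4G19006 read 7.88, 7.68, 7.87 and 7.39 in WT drought and 7.81, 8.01, 7.77 and 7.79 in WT control (-0.14), and the pair differed by 0.36 (exact permutation p = 0.0286). PAD1 at -0.18 and PAD2 at 0.15 also separated (difference -0.33, exact permutation p = 0.0286), with neither gene called; this pair was chosen after its values were seen. Other pairs moved alike in value, among them PBB1 and PBB2, PBC1 and PBC2, and RPN5a at -0.28 and RPN5b at -0.31. The change had the same sign in both genes in 11 of 19 pairs in amiNaa10, 10 for the amiNaa15 label and 14 in WT drought. These counts were not tested. In WT drought 78.4% of the subunit genes lay below 0, so unrelated members would often share a sign too.

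**Figure D4:**
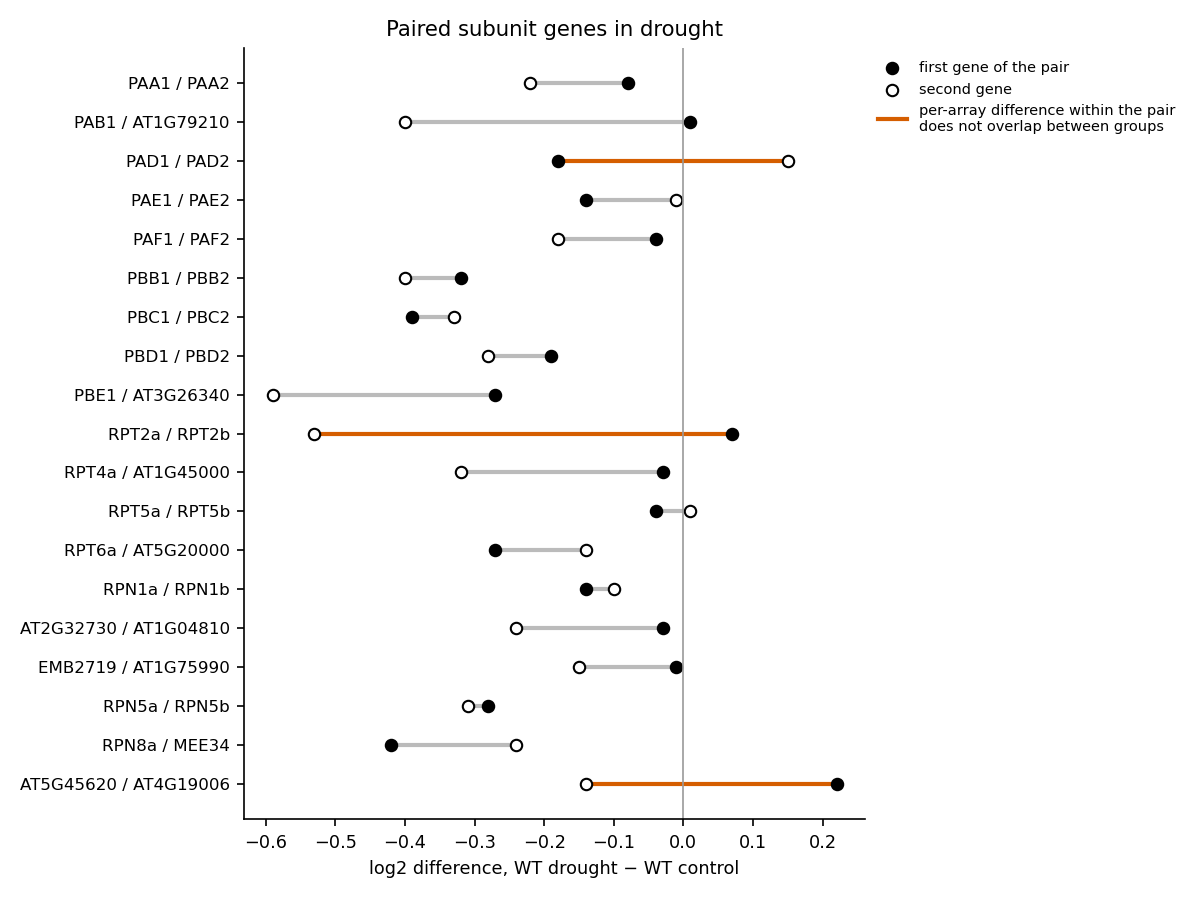
Log2 difference between WT drought and WT control (horizontal axis) for both genes of the 19 paralogue pairs, joined by a line that is coloured where the within-pair difference did not overlap between the groups. RPT2a at 0.07 and RPT2b at -0.53 lie farthest apart, whereas RPN5a and RPN5b lie at -0.28 and -0.31.

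In amiNaa10 the pairs that moved apart most were RPT5, PAA and the pair of AT2G32730. RPT5a read 10.75, 10.93, 10.77 and 10.57 in amiNaa10 and 10.65, 10.50, 10.70 and 10.64 in WT control. RPT5b read 7.17, 7.28, 7.09 and 7.22 in amiNaa10 and 7.35, 7.05, 7.37 and 7.42 in WT control, and the pair differed by 0.24 (exact permutation p = 0.0571). PAA2 read 7.58, 7.57, 7.66 and 7.53 in amiNaa10 and 7.67, 7.38, 7.69 and 7.64 in WT control, so that the PAA pair differed by 0.22 (exact permutation p = 0.171). These groups overlapped.

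For AT2G32730, the partner AT1G04810 read 7.59, 7.38, 7.39 and 7.76 in amiNaa10 and 7.53, 7.61, 7.34 and 7.60 in WT control (pair difference 0.21, exact permutation p = 0.257). On the arrays labelled amiNaa15, AT1G04810 read 7.63, 7.43, 7.41 and 7.62, and the pair differed from WT control by 0.29 (exact permutation p = 0.0286), with AT2G32730 higher and AT1G04810 at 0. For PBB1, the arrays labelled amiNaa15 read 7.49, 7.21, 7.72 and 7.55, and for PBB2 5.84, 5.82, 5.65 and 5.80 (pair difference -0.24, exact permutation p = 0.2). For PBE1 they read 7.48, 7.57, 7.78 and 7.45, and with AT3G26340 the pair differed by 0.24 (exact permutation p = 0.143). Only the AT2G32730 pair was separated from WT control. With replicates 1 and 2 left out it was again the only separated pair, with a difference of 0.24 (exact permutation p = 0.133, where 2 arrays against 4 cannot go below 0.0667). The PBB pair then differed by -0.05 and the PBE pair by 0.33, and 13 of 19 pairs had the same sign.

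Among genes that act around the proteasome, more were called higher than lower in drought. Of 5 polyubiquitin genes, which encode the ubiquitin that marks substrates, 4 were called higher, against 13.9% of all genes. UBQ4 read 9.68, 9.65, 9.55 and 9.57 in WT drought and 8.97, 8.78, 9.12 and 8.76 in WT control (0.71 ± 0.11, SE, adjusted p = 0.000363). UBQ11 was at 0.53, UBQ3 at 0.45 and UBQ10 at 0.35, and UBQ14 at 0.30 missed the threshold. All 5 had their WT drought arrays above the WT control arrays, against 14.5% of all genes. The coding repeats of these genes are nearly identical, so that their signals may not be fully separate. None of the 5 was called in either knockdown comparison with WT control, against 8.04% of all genes for amiNaa10 and 7.54% for the amiNaa15 label. Their values there were -0.29 to 0.28.

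Of 12 genes for substrate delivery and deubiquitination, 4 were higher and 1 was lower in drought, against 13.9% of all genes called higher and 10.8% called lower. RAD23B at 0.32 and RAD23D at 0.28 encode shuttle proteins that carry ubiquitinated substrates to the proteasome, and UBP7 at 0.33 a deubiquitinating enzyme. AtCDC48B, a relative of the unfolding ATPase CDC48A, was at 1.22 ± 0.33 (SE, adjusted p = 0.0121), with 5.97 to 7.08 in WT drought and 4.89 to 6.12 in WT control, so that the groups overlapped. Without WT control replicate 2 the count of higher genes was 2. The shuttle gene DDI1 was lower, at 7.65, 7.85, 7.61 and 7.67 in WT drought and 8.07, 8.20, 8.13 and 8.24 in WT control (-0.47 ± 0.11, SE, adjusted p = 0.00456). None of the 12 was called in either knockdown comparison, against 8.04% of all genes for amiNaa10 and 7.54% for the amiNaa15 label.

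Of 12 further proteasome genes outside the list of subunits, 4 were higher in drought and none was lower, against 13.9% and 10.8% of all genes. RPN12b is among these 12, so the list of subunits does not hold every gene with a subunit name. The subunit counts above, including that none was called higher in drought, therefore cover the 51 listed genes only. A gene that stands alone in the list may have a partner outside it. AT1G53780 was at 0.74 ± 0.17 (SE, adjusted p = 0.00498). AT3G53970, described in the study's supplement as related to a proteasome inhibitor, read 8.61, 8.59, 8.70 and 8.73 in WT drought and 8.10, 7.85, 8.32 and 7.98 in WT control (0.59 ± 0.11, SE, adjusted p = 0.00112). NAC2, also known as ANAC078, a transcription factor that activates proteasome genes when the proteasome is inhibited, was at 0.33 (adjusted p = 0.0312), and its relative NAC053 was at 0.41 (adjusted p = 0.106). AT5G38650 was at 0.32. The count of 4 was 2 when any of WT drought replicates 1, 2 and 3 or WT control replicates 1, 2 and 3 was left out. PA200, an alternative cap of the core, was at -0.25 in drought against WT control (adjusted p = 0.284), and WT drought was below amiNaa10 by 0.67 on the log2 scale for this gene (adjusted p = 0.00436). It read 9.70 to 9.96 in amiNaa10, 9.28 to 9.93 on the arrays labelled amiNaa15, 8.98 to 9.31 in WT drought and 9.12 to 9.69 in WT control. The gap to amiNaa10 thus also holds a higher mean in amiNaa10 than in WT control, which was not called.

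On the arrays labelled amiNaa15, AT1G53780 was the only gene called in these 3 lists. It read 7.99, 8.44, 8.09 and 8.07 there and 7.38, 7.55, 7.48 and 7.56 in WT control (0.65, adjusted p = 0.0293). Without replicates 1 and 2 the value was 0.58 and the call was lost (adjusted p = 0.247). No gene of the 3 lists was called then, against 0.392% of all genes. In amiNaa10, AT1G53780 was at 0.27 (adjusted p = 0.363).

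**Figure D5:**
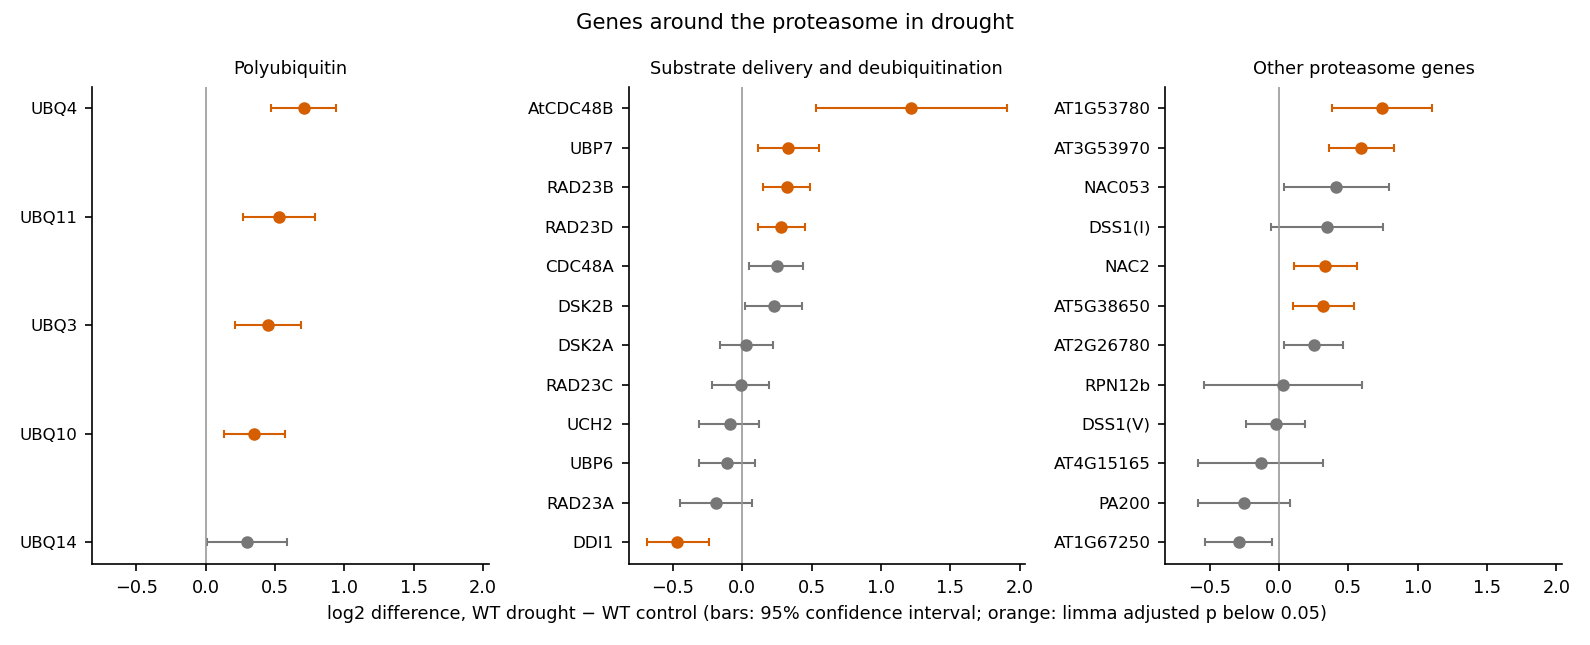
Log2 difference between WT drought and WT control (horizontal axis) with its 95% confidence interval for polyubiquitin genes, genes of substrate delivery and deubiquitination, and further proteasome genes. Coloured points passed the limma threshold; 4 of the 5 polyubiquitin genes were higher, and DDI1 at -0.47 was the gene called lower.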

How the data were processed

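The authors deposited log2 signals per gene. These had been made by RMA background correction, quantile normalization and probe summary with a custom annotation, version 16, based on TAIR gene definitions; the TAIR release is not given in the sources used here, so no coordinates are printed. Quantile normalization makes all arrays share the same distribution, so a shift of all genes cannot be seen. Scanner files were not used here, and slides or scan dates were not tested as batches. The precision is limited by the 4 arrays of a group.

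From the deposited log2 values, a linear model with the 4 group means was fitted to each of the 27827 genes in limma 3.58.1 (R 4.3.3). It used all 16 arrays, which left 12 residual degrees of freedom, and variances were moderated by eBayes. The p-values of a comparison were adjusted after Benjamini and Hochberg over all genes. Genes with an adjusted p below 0.05 were called, with no fold minimum and no filter on low values. The 2 genes constant within every group were never called. Figures were drawn with matplotlib 3.10.9 in Python 3.11.15. Paralogue pairs were tested by two-sided exact permutation over arrays. The subunit genes and the other gene lists were chosen with earlier results of these data known, so lists are described by counts and medians without a p. Values on every array are given for the called genes with the strongest changes (at most 10 a comparison) and for the 3 pairs that moved apart most in each comparison with WT control. The alternatives tried were a 1.5-fold minimum, unmoderated variances as in the ANOVA of the methods, a fit of the compared groups only, a block for the replicate number, omitting the lowest 25% of genes, cyclic loess, array weights, a mean-variance trend, and leaving out arrays. Sequences are not shown.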

Additional observations from a re-analysis of the deposited data

Results flagged for a closer look

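In groups of 4 arrays, 15 of 204 sets of values (7.35%) held an array far from the other 3, measured by the gap to its neighbour relative to the range; chance flags about 1 in 20. In amiNaa10, PBA1 was 8.90 on replicate 1 and AT3G26340 was 5.99 on replicate 3. On the arrays labelled amiNaa15, replicate 3 had PAD2 at 8.41 and RPT5b at 7.53. In WT drought, PBB2 was 5.20 on replicate 2, RPT5b 7.55 and AT1G04810 7.44 on replicate 3, and AT1G75990 7.59 on replicate 4. In WT control, replicate 1 had RPT6a at 5.98, replicate 2 had PAA2 at 7.38, AT1G79210 at 9.50 and RPT5b at 7.05, replicate 3 had AT1G45000 at 6.37 and AT1G75990 at 7.76, and replicate 4 had PAD2 at 8.76. Of the genes called lower in drought, PBB2 and AT1G79210 each had such an array in WT drought or WT control, and both stayed called whichever single array was left out. Without WT drought replicate 3, the array nearest to the controls for the subunit genes, the count was 10.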

How the results depend on the processing

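Of the subunit genes, 12 were called lower in drought relative to WT control, a count that ranged from 6 to 13 when a single array was left out, and was 1 with a 1.5-fold minimum and 6 in a fit of the 2 groups only. It was 17 without moderation of the variance, 16 with cyclic loess, 15 with the lowest 25% of genes left out, 15 with a mean-variance trend and 13 with array weights. Without replicates 1 and 2 of the arrays labelled amiNaa15, which enter the shared variance, it was 10, with PAC1 and RPN5b lost. The count against amiNaa10 (14) ranged from 9 to 17, was 0 with the 1.5-fold minimum and 7 in the fit of the 2 groups; it was 9 without amiNaa10 replicate 2. It was 21 without moderation, 21 with the lowest 25% of genes left out, 20 with array weights, 19 with the trend and 16 with cyclic loess. The count against the arrays labelled amiNaa15 (8) ranged from 5 to 9, with 5 without its replicate 4 or WT drought replicate 1. It was 1 with the 1.5-fold minimum, 15 without moderation, 12 with the lowest 25% of genes left out and 12 with array weights. It was 10 with the trend, 9 with cyclic loess and 5 in the fit of the 2 groups. Without replicates 1 and 2 of that label, 3 were lower and 1, RPN6, was higher. For amiNaa10 the count was 0 for every array left out, and 1 (AT2G32730, higher) without moderation. For the arrays labelled amiNaa15 it was 0 to 1 over single arrays, and 0 with the 1.5-fold minimum, the 2 groups only, the replicate block, cyclic loess, or without replicates 1 and 2. No direction reversed among the called genes. With the 1.5-fold minimum, 7.15% of all genes were called lower in drought against WT control, 9.11% against amiNaa10 and 7.14% against the arrays labelled amiNaa15. For most other alternatives and single arrays left out, the share of all genes is not given. Those counts, here and elsewhere, do not show what is particular to the subunit genes. A fold minimum can only lower a count. The cause of the other changes was not tested, and leaving out an array lowered some counts and raised others.

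Replicate numbers did not pair the arrays: correlations of same-numbered deviations ran from -0.20 to 0.32. Each array of a group was compared with the 4 arrays of another group. The best match had the same number in 6 of 24 such comparisons. With the replicate block, 9 genes were called lower in drought against WT control, 12 against amiNaa10 and 6 against the arrays labelled amiNaa15. With amiNaa10 against WT control the block gave 0.

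Subcomplex medians ranged over single arrays left out as follows. In drought they were -0.23 to -0.08 (alpha), -0.38 to -0.27 (beta), -0.16 to -0.05 (RPT) and -0.16 to -0.08 (RPN). In amiNaa10 they were -0.01 to 0.03, -0.07 to -0.02, -0.04 to 0.04 and 0.06 to 0.10, and on the arrays labelled amiNaa15 -0.05 to 0, -0.17 to -0.09, -0.02 to 0.08 and 0.03 to 0.07. There the alpha median was -0.05 with cyclic loess, and the RPT median -0.08 without replicates 1 and 2. The number of separated paralogue pairs was 3 to 5 in drought, 0 to 2 in amiNaa10 and 1 to 3 on the arrays labelled amiNaa15, where cyclic loess gave 0. The polyubiquitin genes called higher in drought numbered 3 to 4 over single arrays, and the further proteasome genes and the delivery genes 2 to 4 each, in alternatives chosen after seeing the data. The same holds for the pair values, tallies and unadjusted counts without replicates 1 and 2 of the amiNaa15 label.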
